A study of Drosophila melanogaster with 2 samples.

Results

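The chemoreceptor genes of Drosophila melanogaster were followed in a chromatin immunoprecipitation and sequencing (ChIP-seq) experiment on the zinc finger protein Rotund (rn). Members were all protein-coding genes of the main chromosome arms whose symbol is that of an odorant receptor (Or, with Orco), a gustatory receptor (Gr) or an ionotropic receptor (Ir). The rule took 180 of 13945 protein-coding genes, 60 in each of the 3 families, and it reads gene names and no binding values. The gene group itself was chosen with earlier results of these data known. A further 6 matching names belong to pseudogenes and were left out. The animals were whole pupae of the transgenic strain rn-GFP, in which an insertion makes a fusion of rn with eGFP, and chromatin was sheared by sonication and precipitated with an antibody against GFP. There was 1 group with 2 biological replicates, each with 1 technical replicate, and both carry the same donor label. The pupal stage is unknown and sex was not collected. Whole animals mix all tissues, so a site bound in a few sensory cells and a site bound weakly in many cells cannot be told apart. No group without the fusion and no control library was analysed here, so no comparison between conditions was possible.

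In flies, a sensory neuron usually expresses 1 or a few tuning receptors, many of them with a broadly expressed co-receptor that carries the complex to the dendrite. Or proteins pair with Orco in olfactory neurons of the antenna and maxillary palp, Ir proteins pair with Ir8a, Ir25a or Ir76b, and Gr proteins detect sugars, bitter compounds and CO2. Olfactory organs form in the pupa from the antennal disc, where rn is known for patterning, and rn is also known as a transcription factor that helps diversify the precursors of olfactory neurons.

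The authors' lists give each peak a position, a summit and a signal, which is the peak height from their caller. A thresholded set over both replicates keeps peaks at an irreproducible discovery rate (IDR, the estimated chance that a peak does not recur between paired calls) of 0.01 or lower, and a ranked list keeps weaker peaks too. A gene was counted as called when its window, the gene body plus the 5000 bp upstream of the 5' end, held a thresholded summit. The arms held 3774 thresholded peaks and 126185 ranked peaks. The files hold no reads, so depth is unknown, and every interval below covers counting over genes only. Signal is not scaled between lists. Replicate values are given side by side, and a ratio between them also holds any difference in level between their lists.

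The DNA under 7 of the member summits is that of called peaks near a receptor gene, and no control library was used to check them. These 7 were picked because they stand for the different kinds of position described below: inside a receptor's coding exon (Ir85a), the summit closest to a receptor's 5' end (Or88a), intergenic DNA with a receptor as the nearest gene (Gr93a, Or33a), an intron of a neighbour (Gr5a) and the 2 strongest summits (Ir25a, Or85f). Each line gives the 101 bases centred on the summit on the plus strand of Release 6 (dm6), read from the RefSeq assembly, with the 11 bases at the summit in capitals. The positions are 3R:8796592-8796692, 3R:14108674-14108774, 3R:21828917-21829017, 2L:11931945-11932045, X:5679193-5679293, 2L:4837812-4837912 and 3R:9393838-9393938, in the order of the lines.
Ir85a: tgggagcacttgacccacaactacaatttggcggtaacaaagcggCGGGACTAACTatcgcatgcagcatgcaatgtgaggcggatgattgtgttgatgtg
Or88a: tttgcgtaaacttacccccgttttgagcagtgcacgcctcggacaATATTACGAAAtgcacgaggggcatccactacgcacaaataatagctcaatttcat
Gr93a: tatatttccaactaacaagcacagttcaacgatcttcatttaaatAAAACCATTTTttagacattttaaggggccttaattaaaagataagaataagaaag
Or33a: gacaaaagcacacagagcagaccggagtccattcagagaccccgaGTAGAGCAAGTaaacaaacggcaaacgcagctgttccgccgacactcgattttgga
Gr5a: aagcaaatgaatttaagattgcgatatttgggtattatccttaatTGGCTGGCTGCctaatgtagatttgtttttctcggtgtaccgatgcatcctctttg
Ir25a: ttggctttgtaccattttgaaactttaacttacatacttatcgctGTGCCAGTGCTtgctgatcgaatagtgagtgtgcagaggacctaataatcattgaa
Or85f: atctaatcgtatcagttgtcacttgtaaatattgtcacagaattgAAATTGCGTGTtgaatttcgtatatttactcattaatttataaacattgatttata
The windows differ in base composition, with 24.8% G and C at Or85f and 26.7% at Gr93a, against 50.5% at Ir85a and 52.5% at Or33a. On both strands of each window 3 motifs were searched. The first was a run of 7 A (AAAAAAA), the second was TTAAAA, which can overlap the first, and the third was TATCGATA, the replication-related element of many promoters of housekeeping genes in flies. Of these 7 windows, that of Gr93a held TTAAAA and the other 6 held none of the motifs. Over all 21 summits in member windows, AAAAAAA was found at 3 (14.3%) and TTAAAA at 6 (28.6%), beside 17.7% and 30.4% of all 3774 thresholded summits. TATCGATA was at 0 of the 21 and at 0.768% of all summits.

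Few chemoreceptor genes were called. A thresholded summit lay in the window of 20 of 180 chemoreceptor genes, 11.1% (exact Clopper-Pearson 95% interval 6.92 to 16.6), against 27.3% of the other 13765 genes and 27.1% of all protein-coding genes. Receptor genes are short, with a median length of 1692 bp against 2183 bp for other genes, so each was also set beside the other genes of its length class, among 20 classes of equal size. Other genes of the same lengths were called at 22.7%, which would make 40.8 of 180 genes. The 3 families had like counts: 6 of 60 Or genes (10%), 6 of 60 Gr genes (10%) and 8 of 60 Ir genes (13.3%), beside 21.9%, 21.8% and 24.4% of other genes of their lengths. In the authors' conservative set the total was again 20, but with 4 Or, 8 Gr and 8 Ir genes: 17 genes were called in both sets, Or33a, Or33b and Gr5a only in the thresholded set, and Gr32a, Gr43a and Gr97a only in the conservative set. Neighbouring receptor genes are not independent, since 75 of the 180 lie in clusters of 2 or more and can share a peak. Counted once each, 18 of 133 clusters held a thresholded summit. Other genes were not grouped in this way, so this count cannot be set beside the shares above.

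The counts were furthest below those of other genes at and near the receptors' own starts. No chemoreceptor gene had a thresholded summit within 500 bp of its 5' end, 0 of 180, which allows a share of up to 1.67% by the limit of 3 counts and up to 2.03% by the exact 95% interval, against 10.5% of other genes and 10.3% of all genes; other genes of the same lengths would give 19.2. In the gene body alone 1 of 180 was called (Ir85a), against 10.1% of other genes (9.97% of all genes), and 3.68% of other genes of the same lengths. With the body and 1 kb upstream 2 of 180 were called (Ir85a and Or88a), against 18.5% of other genes (18.3% of all genes), and 13.3% of other genes of the same lengths. Farther upstream the counts of receptors came close to those of other genes.

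Split by distance, 1 of 180 receptor genes had a thresholded summit in the first 1000 bp upstream, where other genes of the same lengths would give 18.2 (9.95% of all genes). Between 1000 and 2000 bp there were 2 receptor genes beside 5.8 (3.31% of all genes), and between 2000 and 3000 bp 6 beside 5.12 (3.02% of all genes). Between 3000 and 4000 bp there were 4 beside 5.57 (3.23% of all genes), and in the last 1000 bp 8 beside 6.32 (3.61% of all genes). Of those 8, 5 were Ir genes, beside 2.14 for their lengths. When only summits more than 500 bp from every protein-coding start were counted, an alternative chosen after the data were seen, 12 receptor genes were called, 6.67%, against 11.7% of other genes and 11.7% of all genes, and beside 10.8 genes for other genes of the same lengths.

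**Figure D1:**
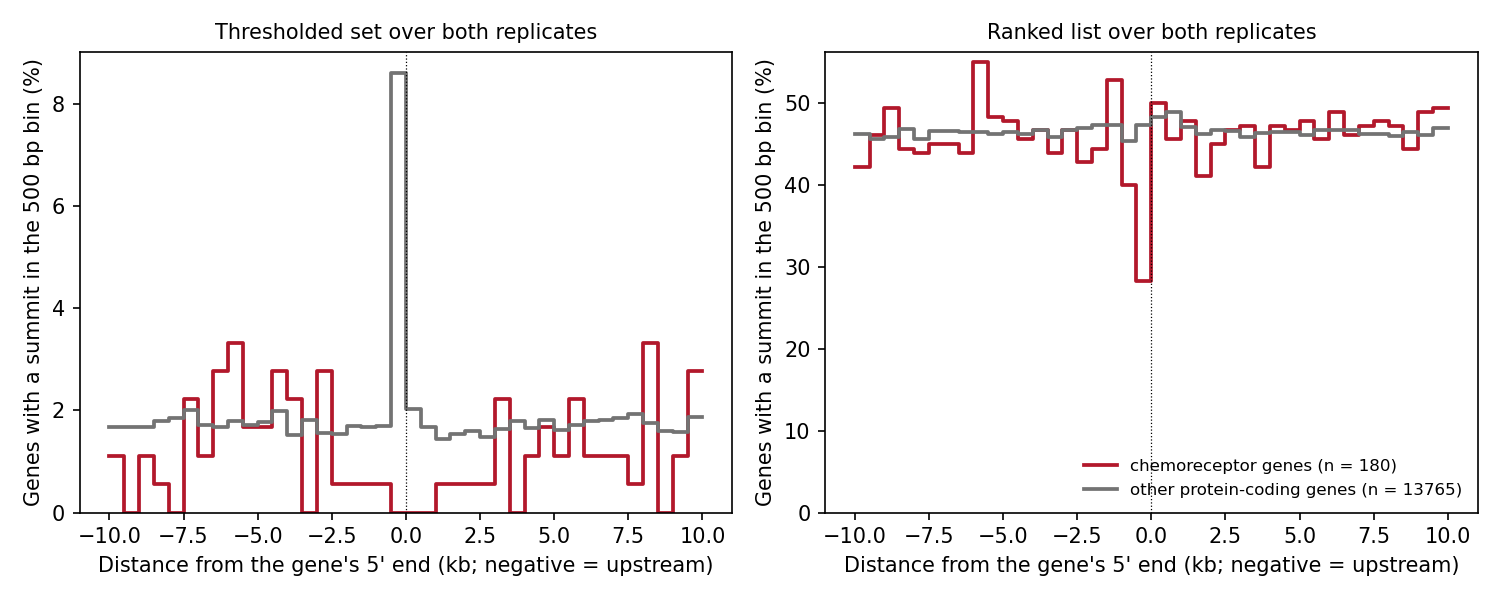
Percent of genes with a summit in each 500 bp bin from 10 kb upstream to 10 kb downstream of the 5' end, for chemoreceptor genes (red, n = 180) and other protein-coding genes (grey, n = 13765), in the thresholded set (left) and the ranked list (right). In the 500 bp upstream of the start, 0% of chemoreceptor genes and 8.6% of other genes had a thresholded summit, and 28.3% and 47.3% had a ranked summit.

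The ranked list showed a dip at the same place. In the 500 bp upstream of the 5' end, 28.3% of receptor genes had a ranked summit against 47.3% of other genes, while in the 500 bp downstream 50% of receptor genes had one against 48.3% of other genes. In the next bin upstream, 500 to 1000 bp, the shares were 40% of receptor genes and 45.4% of other genes, and between 1000 and 1500 bp they were 52.8% and 47.4%. Median G and C in the bin with the dip was 37.8% in receptor genes and 38.4% in other genes. From 250 bp before to 50 bp after the 5' end it was 39.3% and 38%. There the median percentile of receptor genes in their length classes was 64.1. The part of base composition in the dip was not tested. The highest ranked signal within 500 bp of the 5' end had a median of 13 in receptor genes against 18.6 in other genes. A ranked summit lay within 500 bp of the 5' end of 116 of 180 receptor genes, 64.4%, against 73% of other genes (72.9% of all genes). In the promoter window from 250 bp before to 50 bp after the 5' end, TATCGATA was found on either strand in 1 of 180 receptor genes (Gr68a, 0.556%), against 9.47% of other genes, and TTAAAA in 43.3% against 53.5%.

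In all, the 20 called genes had 24 pairs of gene and summit, made by 21 different summits. Of the 21, 9 were promoter summits (within 500 bp of a transcript start of any gene), 9 were intergenic, 2 lay in introns and 1 in a coding exon. The nearest protein-coding start belonged to a chemoreceptor gene at 9 summits and to another gene at 12. Those 9 include 2 overlapping calls at Gr93d and 3 close summits at Ir94d, so they stand for fewer separate sites. The same calls are among the 9 intergenic summits. Within 500 bp of a protein-coding start lay 8 summits, and none of those starts was a receptor's. The body of a protein-coding gene that is no receptor held 7 of them. Of the 20 genes, 18 had summits only between 1 and 5 kb upstream.

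**Figure D2:**
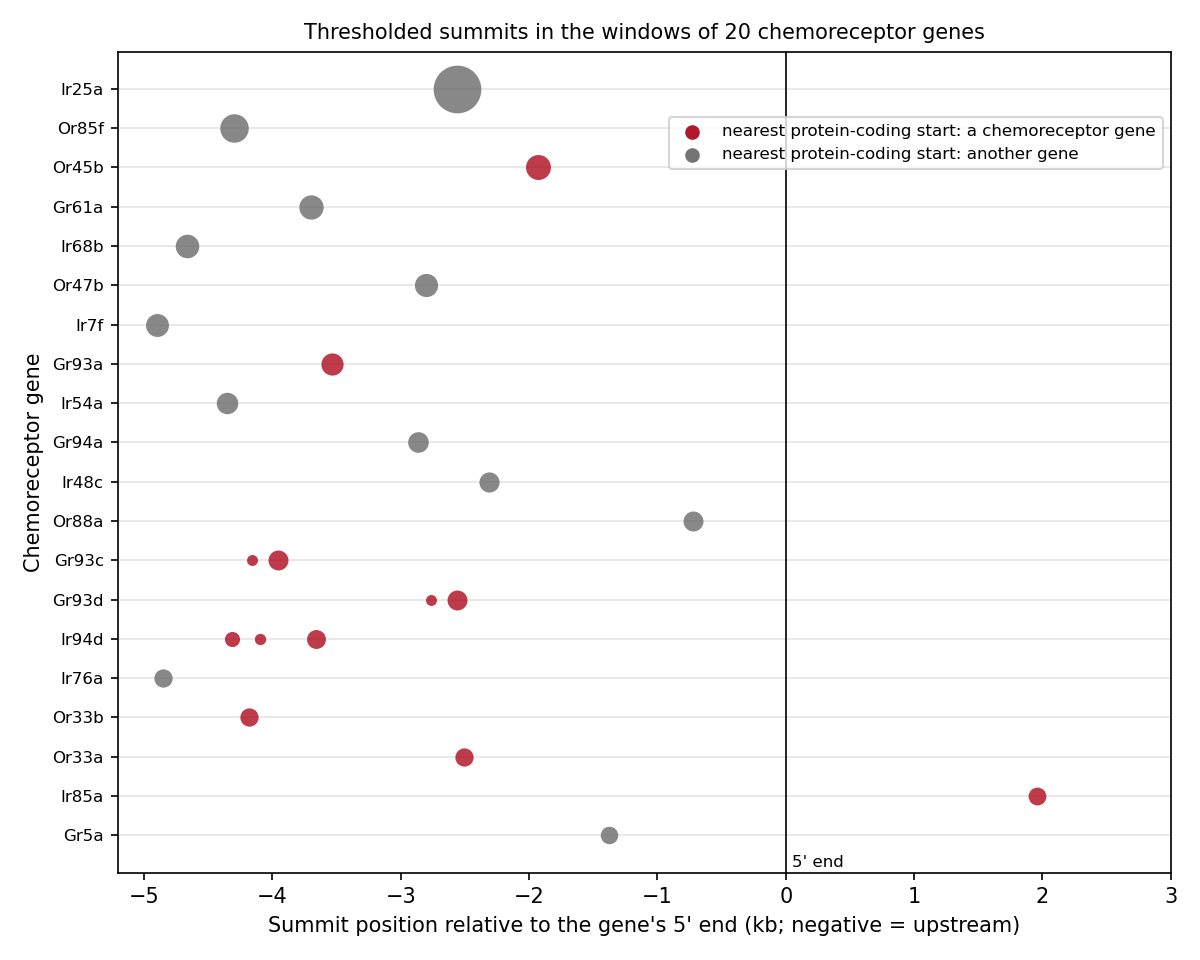
Position of each thresholded summit relative to the 5' end of its chemoreceptor gene, in kb, for the 20 called genes ordered by their highest signal. Larger points have a higher authors' signal; red points have a receptor gene as the nearest protein-coding start and grey points another gene. The 1 summit downstream of a 5' end is that of Ir85a, and the closest upstream one is 721 bp from Or88a.

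Among the co-receptors, Ir25a (FBgn0031634, 2L:4830846-4835300, minus strand) had the highest signal of the 180 genes. The signal of its peak (2L:4837753-4837966) was 607, rank 25 of the thresholded set, with 311 in replicate 1 and 294 in replicate 2. The summit lay 2562 bp upstream of Ir25a but only 137 bp from the start of tank, and also within 500 bp of the start of CG12194. The other 3 co-receptor genes were not called. Orco, the partner of the odorant receptors, had a highest ranked signal of 40.4 (24.3 and 18.6 in replicates 1 and 2), Ir76b had 32.0 (25.5 and 21.4) and Ir8a had 28.2 (14.7 and 7.08). Set beside other genes of their lengths, called genes among them, Orco stood at the 49.9th percentile, Ir76b at the 38.0th and Ir8a at the 22.3rd. Beside uncalled other genes of their lengths, Orco stood at the 77.0th, Ir76b at the 52.2nd and Ir8a at the 30.9th.

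Among the odorant receptors, 6 were called. Or85f, which detects odours of parasitoid wasps, had a peak of signal 170 at 3R:9393740-9394035 (72.5 and 97.2 in replicates 1 and 2), 4302 bp upstream and inside the kinase gene FER. Or45b, a receptor of the larval nose, had a peak with a signal of 121 (61.8 and 56.6) in intergenic DNA 1932 bp upstream, with Or45b as the nearest protein-coding gene. In both genes the replicate values lay within 1.5 times of each other, in lists that are not scaled to each other.

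Or47b and Or88a are receptors of trichoid sensilla that respond to fly odours in courtship. The peak upstream of Or47b had a signal of 99.6, with 70.1 in replicate 1 and 25.3 in replicate 2, and sat 195 bp from the start of sha, 2807 bp from Or47b. The peak of Or88a (3R:14108576-14108871) had a signal of 66.5, with 33.3 and 33.4 in the replicates, 721 bp upstream and 403 bp from the start of CG12402. These were 2 of the 9 receptors listed here as trichoid, beside 1.92 for other genes of their lengths. The other 7 of that list had highest ranked signals between 27.6 and 40.1, with Or67d, the receptor for the male pheromone cis-vaccenyl acetate, at 40.1. The list may not be complete. It holds Or19a and Or65a but not Or19b, Or65b and Or65c, which were uncalled with lower signals of 15.4, 18.4 and 18.4.

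Or33a and Or33b, a tandem pair, shared 1 peak (2L:11931847-11932142) with a signal of 51.5, 2510 bp upstream of Or33a and 4186 bp upstream of Or33b. It reached 11.1 in replicate 1 and 36.2 in replicate 2 and was not in the authors' conservative set. Of the receptors listed here as larval, 2 of 14 were called (Or33a and Or45b, beside 3.05 for their lengths). Of those listed for the maxillary palp it was 0 of 7 (beside 1.53). These lists may not be complete, so the values hold for the listed genes only, and Or33b is in neither list. Among the 12 listed larval receptors that were not called, the median highest ranked signal was 24.7, at the 25.2nd percentile of other uncalled genes of their lengths.

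Among the gustatory receptors, 2 of 9 sugar receptors were called, beside 2.18 for other genes of their lengths. Gr61a, a glucose receptor, had a peak of signal 113 at 3L:837604-837899 (52.8 and 60.4 in replicates 1 and 2), which lay 3699 bp upstream and 69 bp from the start of CG13901. Gr5a, the trehalose receptor, had the weakest highest signal of the called genes, 45.5 (25.7 and 22.1), at X:5679095-5679390 in an intron of its neighbour Tre1, 1374 bp upstream. That peak was in neither replicate's own thresholded set nor in the conservative set.

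The remaining sugar receptors were not called. Gr43a, a fructose receptor that also works in the brain, had a ranked signal of 50.7 with an IDR score of 698, under the lowest score of 830 in the thresholded set; its replicate signals were 25.3 and 27.8 at summits 55 bp apart. In the tandem Gr64 cluster, the largest of the receptor clusters with 6 genes, Gr64a, Gr64b and Gr64c had a highest signal of 33.7 and Gr64d, Gr64e and Gr64f one of 33.0, from summits they share. The CO2 receptor genes Gr21a and Gr63a, whose products work as a pair, had 24.2 and 37.3. Their best ranked signals were 13.9 and 13.7 in replicate 1 and 15.2 and 21.6 in replicate 2.

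The other called gustatory receptors lie on 3R. Gr93a, needed for the taste of caffeine, had a peak of signal 88.6 at 3R:21828819-21829114 (46.6 and 38.6 in replicates 1 and 2) in intergenic DNA 3536 bp upstream, with Gr93a as the nearest gene. Its neighbours Gr93c and Gr93d shared a peak of signal 66.1 at 3R:21849070-21849365 (30.4 and 38.8), 3953 bp upstream of Gr93c and 2559 bp upstream of Gr93d, and an overlapping weaker call of 8.59. Gr94a had a peak of 72.7 (38.8 and 28.4) 2862 bp upstream, 613 bp from the start of CG17121. Of the 5 bitter receptors that most bitter neurons share (Gr32a, Gr33a, Gr39a, Gr66a and Gr89a), 0 were called, beside 1.21 for their lengths. Their ranked signals were uneven: Gr66a had 43.3, Gr32a 41.8, Gr89a 39.3 and Gr33a 35.8, and Gr39a had no ranked summit.

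Among the ionotropic receptors, 7 tuning receptors were called beside Ir25a. The peaks of Ir68b (104, with 60.9 and 42.9 in replicates 1 and 2) and Ir54a (80.8, with 39.8 and 41) lay 4668 and 4351 bp upstream, 84 bp from the start of DEF8 and 65 bp from that of PIG-A. The peak of Ir7f (96.5, with 61.9 and 32.5) lay 4902 bp upstream and 143 bp from Acat1, and that of Ir48c (67.9, with 41.9 and 25.7) in an intron of its host gene ths, an FGF ligand gene. Ir76a, an antennal receptor for amines, had a peak of 51.9 (29.9 and 31) 4855 bp upstream, inside SREBP. It was the only 1 of 14 antennal ionotropic receptors called, beside 4.41 for their lengths.

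At 2 ionotropic receptors the nearest start to the summits was the receptor's own. Ir94d had 3 summits in intergenic DNA between 3662 and 4317 bp upstream, the strongest with signal 57 at 3R:23398998-23399293 (26.6 and 28.1 in replicates 1 and 2) and the others with 29 and 10.1. Ir85a (3R:8794684-8796966) was the only receptor with a thresholded summit in its own body, in a coding exon 1958 bp from its 5' end, with signal 48.1 at 3R:8796494-8796789 (26 and 23.9). Ir85a is nested in Pif1A and Pif1B, so that this summit lies in their bodies as well.

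**Figure D3:**
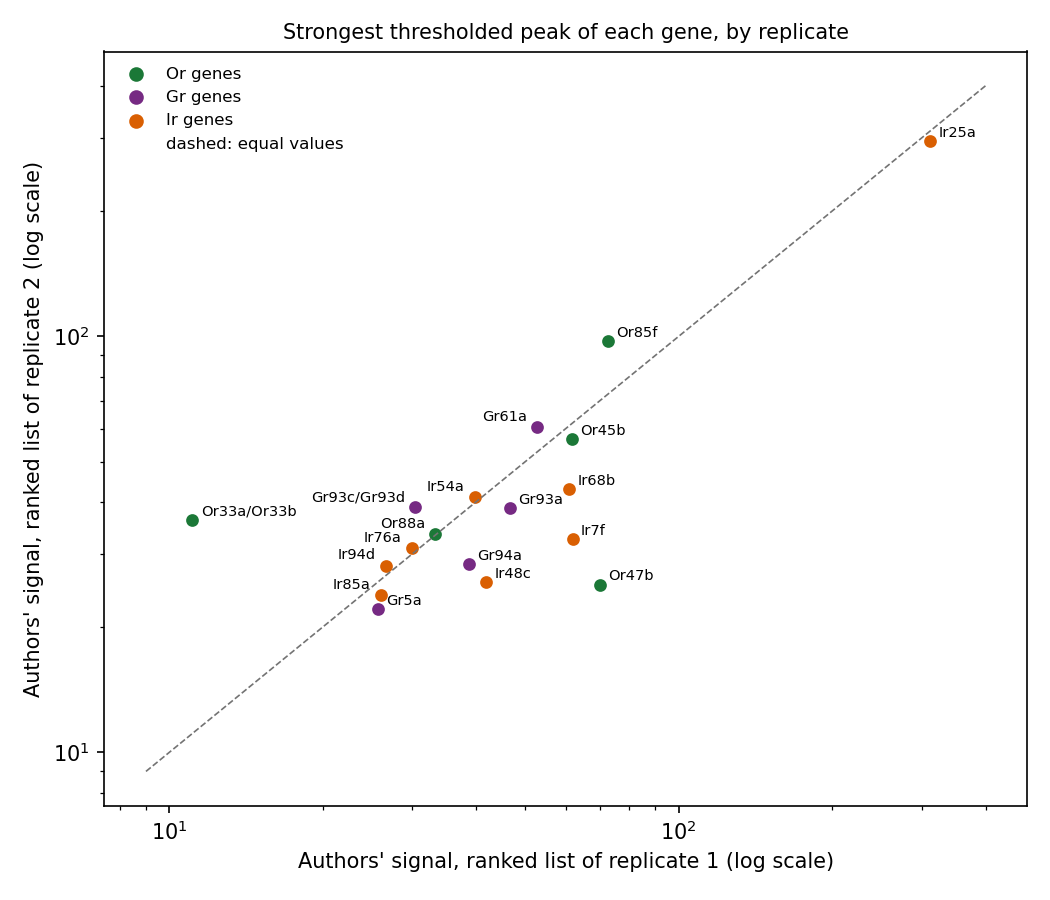
Authors' signal of the strongest thresholded peak of each called chemoreceptor gene in the ranked list of replicate 1 (x axis) and replicate 2 (y axis), both on a log scale, coloured by family; the 2 lists are not scaled to each other, and the dashed line marks equal values. Or33a and Or33b (11.1 and 36.2) and Or47b (70.1 and 25.3) lie farthest from the line, and the values of Ir7f and Ir48c are also over 1.5 times apart.

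All 21 summits had a peak in the ranked list of each replicate. The higher signal was in replicate 1 at 12 of 21, and the median ratio of the higher to the lower value was 1.22. The 21 are not separate comparisons, because neighbouring calls can carry the same replicate values. The calls of 66.1 and 8.59 at Gr93d share 30.4 and 38.8, and those of 29 and 10.1 at Ir94d share 18.5 and 15.2. The lists are not scaled to each other: over other genes the median highest ranked signal was 21.5 in replicate 1 and 19.4 in replicate 2. Such ratios also hold that difference, so they do not measure the agreement of the replicates alone. At 4 of 21 the values were over 1.5 times apart: those of Or33a, Or47b, Ir7f and Ir48c. In the thresholded sets of both single replicates were 4 of the 21, 10 were in 1 of them and 7 in neither, while 17 were in the conservative set. The sets of replicates 1 and 2 held 2375 and 2112 peaks and the conservative set 3613, against 3774 in the thresholded set. The same shares over all 3774 peaks were not counted, so whether these counts are particular to receptor genes is unknown. The median signal of the 21 was 67.9, against 79.7 over the whole thresholded set, and 9 of them were above that value.

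In the ranked list, which holds the thresholded peaks too, receptor windows held a summit about as often as those of others. In the gene body a ranked summit was found at 149 of 180 receptor genes, 82.8%, beside 86.4% of other genes of the same lengths (82.9% of all genes). A ranked summit lay in the window of 169 of 180 receptor genes, 93.9%, against 93.6% of other genes and 93.6% of all genes. The number of ranked summits per kb of window had a median of 1.08 in receptor genes against 1.12 in other genes. Its median percentile in the length classes was 40.7, with 102 of 180 receptor genes under the class median. The highest ranked signal had a median of 30.6 in receptor genes (quartiles 24.2 and 36.6) against 35.8 in other genes (quartiles 27.6 and 57.2). Set beside other genes of the same length, 120 of 180 receptor genes were under the median of their class, and the median percentile was 36.7.

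Without the called genes the difference was smaller. In the 160 uncalled receptor genes the median highest signal was 28.8, against 31.2 in 10012 uncalled other genes, at a median percentile of 41.1 in their length classes, and 93 of 160 were under the class median. The families differed in this measure: the median was 28.3 for Or genes (39.7th percentile), 32 for Gr genes (53.3rd percentile) and 28.2 for Ir genes (36.1st percentile). Over all genes, the median in replicate 1 was 17.9 for receptor genes against 21.5 for other genes, and in replicate 2 it was 16.5 for receptor genes against 19.4 for other genes. The order of the families was not the same in the replicates, with Gr highest in replicate 1 (19.5, with Ir at 18.2 and Or at 17.6) and Ir highest in replicate 2 (19.1, with Gr at 16.2 and Or at 14.6).

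**Figure D4:**
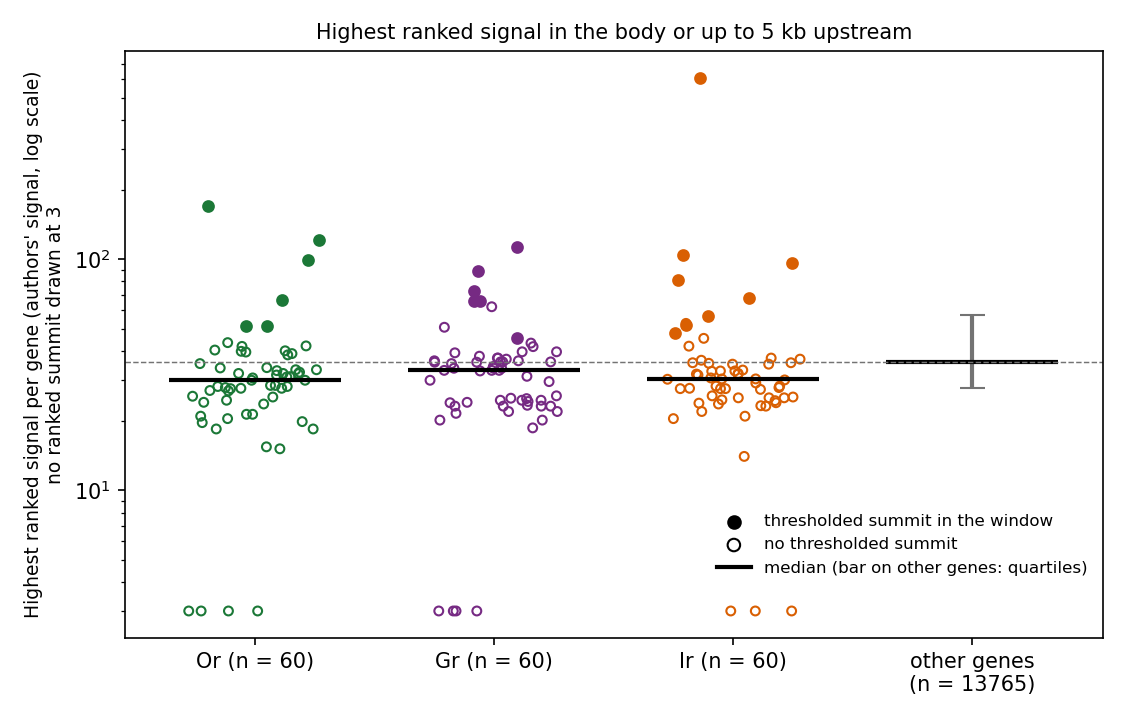
Highest ranked signal in the window of each chemoreceptor gene by family (log axis; filled points have a thresholded summit, open points have none, and genes with no ranked summit are drawn at 3), with the median as a black line; other protein-coding genes are shown by their median and quartiles. The medians were 29.9 for Or, 33 for Gr and 30.3 for Ir genes, against 35.8 for other genes.

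The highest signals among uncalled receptors were those of Gr97a (62.2), Ir62a (52.7) and Gr43a (50.7). That of Gr97a exceeded the signals of several called genes but had a score of 50, under the threshold of 830, although a summit in its window was in the conservative set, and its best summits in replicates 1 and 2 (29.8 and 26.1) lay 593 bp apart. Nearest to the threshold score from below were Gr32a with 788 (signal 41.8) and Or43b with 768 (signal 43.5), and from above Ir76a with 846 (signal 51.9) and Ir48c with 891 (signal 67.9). The best summits of replicates 1 and 2 lay within 100 bp of each other in 37 of the 156 receptor genes with a ranked summit in both, 23.7%, against 34.7% of other genes. Of those 37, 16 were called genes, which passed a filter on recurrence between paired calls. Among uncalled receptor genes the count was 21 of 136, and uncalled other genes were not counted. The part of the called share in the difference was not tested.

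The 4 longest uncalled receptor genes were set in their length classes, which hold called genes too, in the list over both replicates. These genes were picked as uncalled, so a low standing in such classes is partly built in. Ir41a, an antennal polyamine receptor with an annotated length of 104437 bp, had 80 ranked summits, of which the highest reached 36.5, the 18.5th percentile of its length class. Ir40a, a humidity receptor of 24851 bp, had 25.6 (6.0th percentile), Ir93a, a receptor for temperature and humidity, 29.1 (16.4th percentile), and Gr28b, a warmth receptor, 21.9 (6.3rd percentile) from its only ranked summit. Among uncalled other genes of the same length classes, Ir41a stood at the 44.5th percentile, Ir93a at the 25.8th and Ir40a at the 12.2nd. Gr28b was the lowest of the 4 there, and Ir41a did not stand low. The standing in the classes with called genes differed between the replicates. Gr28b was at the 61.2nd percentile in replicate 1 (28.8) and had no ranked summit in replicate 2. Ir93a was at the 5.8th percentile in replicate 1 and the 40.0th in replicate 2.

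No ranked summit lay in the windows of 11 receptor genes: Gr36a, Gr36b, Gr36c, Gr39a, Ir31a, Ir56d, Ir68a, Or1a, Or30a, Or45a and Or46a. Empty windows were about as frequent among other genes, since 93.9% of receptor genes and 93.6% of other genes had a ranked summit. The 11 genes sit in stretches of 16.1 kb (Or46a) to 59.1 kb (Gr39a) without a ranked summit. Over the arms the median distance between neighbouring ranked summits is 680 bp. Long stretches around these genes are built in, because the genes were picked for an empty window of over 5000 bp. Such stretches of over 10 kb make up 17.4% of the arms. Some of these genes did have peaks in a single replicate's list, such as Gr39a with 18.1 in replicate 2 and Or46a with 18.1 in replicate 1, so an empty window in the list over both replicates does not mean that no enrichment was called in either.

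Without matching for gene length, receptor genes, which are shorter, more often had a window free of other starts. A window held no start of another protein-coding gene at 64 of 180 receptor genes, 35.6%, against 25% of other genes. Without such a start, 6 of the 64 receptor genes were called, 9.38%, beside 14.1% for other genes of the same lengths, and with 1 or more such starts 14 of the 116 were called, 12.1%, beside 25.4%. Nested in another protein-coding gene were 16.7% of receptor genes against 13.4% of other genes. G and C made up a median of 42.5% of receptor windows against 43.9% of other windows, and 47.1% of the 51 bp at the best ranked summit in both. The part of gene spacing and of base composition in the counts was not tested, nor that of gene length in the share of windows free of other starts. The nearest thresholded summit lay a median of 20.2 kb from the 5' end of receptor genes (29.8 kb for Or, 17.7 kb for Gr and 15 kb for Ir genes), against 11.2 kb for other genes.

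Downstream of the gene, 20 of 180 receptor genes had a thresholded summit within 5 kb, 11.1%, against 15.4% of other genes and 15.4% of all genes, beside 29.9 for other genes of the same lengths. The gustatory receptors had 11 of 60, beside 10, while Or genes had 5 of 60 beside 9.68 and Ir genes 4 of 60 beside 10.2. Among the 11, Gr64d, Gr64e and Gr64f share 1 summit (signal 108) that lies 88 bp from the start of CG11593, and Gr28a and Gr28b share 1 (signal 53.6) that lies 36 bp from that of santa-maria. Gr89a had a summit of 98.3 in intergenic DNA 197 bp past its 3' end, with Gr89a as the nearest gene. When each summit was given only to the gene with the nearest start, 11 receptor genes had one, 6.11%, against 17.1% of other genes (16.9% of all genes).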

How the data were processed

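ChIP-seq of rn-eGFP was measured in 2 biological replicates of whole pupae. The deposited files are narrowPeak lists on dm6, per the labels. Which programs aligned the reads and called the peaks is not given in the sources used here. Signal in the deposited lists is the authors' peak height, the score is the authors' IDR rescaled to at most 1000, and the −log10 of the IDR stands in the deposited ranked lists. The lists over both replicates combine the replicates; each replicate also has its own lists, used for replicate values. Lists hold peaks without reads, so precision per peak is unknown. Of the 2 ranked lists over both replicates, the one that holds all 3774 thresholded peaks was used; the other holds 2646.

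Summits were placed on Ensembl 115 gene models (BDGP6.54) with 1-based coordinates. Counts, medians and percentiles within 20 gene-length classes were computed with Python 3.11.15, numpy 2.4.6 and pandas 2.3.3, with no test over genes, and the window and class steps were tested on simulated data. The genes named were all called members, the 10 with the highest ranked signal and the 5 highest per replicate, co-receptors, CO2 and sugar receptors, 2 members on each side of the threshold score, the 4 longest uncalled members, and genes sharing a summit with them; others were named after their values were seen. Members and lists were chosen with earlier results of these data known. Alternatives were other peak sets, windows, length classes and subsets of genes.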

Additional observations from a re-analysis of the deposited data

How the results depend on the processing

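The count of 20 called receptor genes stayed within 1.5 times in the conservative set (20, with Or 4, Gr 8 and Ir 8, and 17 genes shared), the ranked list at the threshold score, with any overlap of 1 bp, without nested members and with clusters counted once. The count was 9 to 11 in the set of a single replicate (Or 3 to 4, Gr 2 to 4, Ir 3 to 4), where other genes of the same lengths would give 27.8 to 27.9. At an IDR of at most 0.001 it was 8 (Or 3, Gr 1, Ir 4), beside 26.2. With the gene body alone it was 1 (Or 0, Gr 0, Ir 1), and with 1 kb upstream 2 (Or 1, Gr 0, Ir 1). With 5 kb on both sides it was 37 (Gr 16), beside 61.6. By nearest start it was 11 (Ir 3), beside 22.5. With summits over 500 bp from every protein-coding start, added after the data were seen, it was 12 (Ir 3), beside 10.8 for other genes of the same lengths, though its share of 6.67% was under the 11.7% of other genes. In windows with no start of another gene, 58 of 64 receptor genes had a ranked summit, fewer because fewer genes were counted.

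The median percentile of uncalled receptor genes, 41.1, was 41 to 45.1 in the lists of single replicates, 46 in windows with no start of another gene and 36.1 without nested members, and stayed under 50 in each; the cause of these shifts was not tested. No paired analysis was possible because there is 1 group and no result comes from a test. Read depth is unknown, so an uncalled window may hold enrichment these lists could not show, and 2 replicates limit every statement on spread.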

Other observations

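Other gene families of the chemical senses were counted in the same window, in which 27.1% of all genes were called. Odorant-binding proteins, which are secreted into the lymph of sensilla, were called at 3 of 52 genes, beside 9.5 for other genes of their lengths. Of those 3, 2 had the summit within 500 bp of their own start, which is 3.85% of the 52 genes, beside 6.79% of other genes of their lengths and 10.3% of all genes: Obp83cd (signal 54.6, 131 bp upstream) and Obp99b (signal 52.2, 238 bp upstream), while Obp51a had one of 48.7 in an intron of another gene, 2874 bp upstream. The CheA and CheB genes, some of which are expressed in taste hairs of the leg, were called at 3 of 20, close to the 3.75 for other genes of their lengths. CheB42c had a signal of 181 at 14 bp from the start of Ufsp1, CheA87a had 161 and 61.1 near Dic1, and CheA29a had 74.4 in an intron 3725 bp upstream.

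Counts of 0 were found for 29 genes of the ppk channel family (beside 7.3 for their lengths), 13 ionotropic glutamate receptors (beside 4.87), 7 opsins (beside 1.95) and the 2 Snmp genes (beside 0.686). A ranked summit lay in the window of 26 of the 29 ppk genes, 12 of the 13 ionotropic glutamate receptors, 7 of the 7 opsins and 1 of the 2 Snmp genes. The median highest ranked signal was 33.2 for ppk genes, 33.5 for ionotropic glutamate receptors, 34.9 for opsins and 11.2 for the Snmp genes, against 31.2 for uncalled genes outside the receptor families. These are descriptions of the lists and no test was run on them.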
